A study of Homo sapiens with 6 samples.

Results

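The sirtuins are the NAD+-dependent deacylases of the cell, and their genes in humans are SIRT1 to SIRT7. All 7 members were found by gene symbol among the 32364 genes of an mRNA sequencing table of Kasumi-1, an acute myeloid leukemia cell line of the M2 subtype with the t(8;21) translocation. The table holds 3 control libraries, which had the solvent (DMSO), and 3 libraries of cells incubated with 0.5 µM I13, both for 48 h. I13 is described by the study as a histone deacetylase (HDAC) inhibitor. Expression was deposited as FPKM, fragments per kilobase of exon scaled to the size of the library. The labels number the replicates of each group from 1 to 3 and do not say whether they were separate cultures, so that p-values measure the spread between these libraries, which may be technical. Enzyme activity, protein and NAD+ were not measured here.

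Sirtuins remove acetyl and longer acyl groups from lysine and consume NAD+ in each cycle, with nicotinamide as a product that inhibits them. The HDACs of the other classes use a zinc ion in place of NAD+. SIRT1, SIRT6 and SIRT7 are mainly nuclear, SIRT2 is mainly cytosolic, and SIRT3, SIRT4 and SIRT5 reside in mitochondria. SIRT1 deacetylates histones and FOXO factors and has been studied in leukemic stem cells.

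Control libraries held from 16566742 to 17221345 fragments, and I13 libraries from 15281052 to 16682550. Defining genes of myeloid progenitors were expressed in all 6 libraries, with MPO between 10241 and 12450 FPKM and KIT between 196 and 236 FPKM. CD34 lay between 38.3 and 45.9 FPKM, and CD33, the lowest of those listed, between 10.8 and 13.7 FPKM. Among 8 measured markers of other cell types, EPCAM lay between 20.8 and 26.5 FPKM, and the other 7 were at most 0.376 FPKM. The first principal component, from 4133 genes averaging 10 FPKM or more, accounted for 43.3% of the variance, and on it control replicate 3 lay beside I13 replicate 2, far from the remaining 4 libraries. No batch is named in the labels. For this reason the difference of each sirtuin gene is also given within the 4 libraries and within this pair. The second principal component, with 20.5% of the variance, separated the groups. Control libraries lay from -3.58 to -2.28 on it, and I13 libraries from 2.50 to 3.15. This separation was not tested.

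By the deposited FPKM, the 7 genes fell into 3 tiers. SIRT6, SIRT1, SIRT2 and SIRT7 were the most abundant, with means over the 6 libraries of 9.45, 8.29, 7.77 and 7.52 FPKM. The libraries of each overlapped those of the next, and the order held in 5 of 6 libraries for SIRT6 over SIRT1, in 4 of 6 for SIRT1 over SIRT2 and in 4 of 6 for SIRT2 over SIRT7. SIRT3, with a mean of 3.83 FPKM, and SIRT5, with 2.22 FPKM, followed. SIRT4 was the lowest at 0.508 FPKM. From SIRT7 down, each gene was below the one before it in all 6 libraries, with no overlap of the ranges. The highest of the 7, SIRT6, lay above 76.8% of the 18726 genes tested, and SIRT4 lay above 28.2%.

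**Figure D1:**
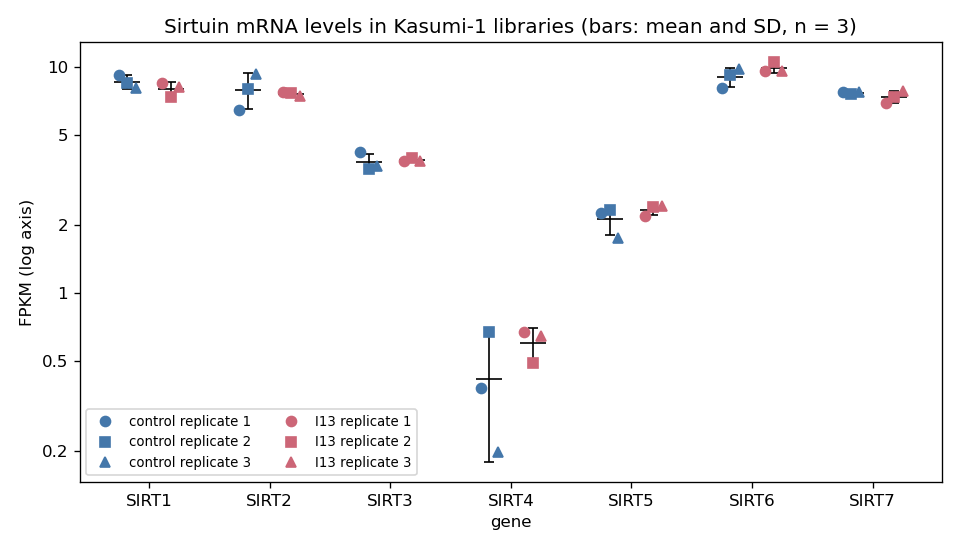
FPKM of the 7 sirtuin genes (log axis) in each library, with control in blue, I13 in red and the replicate shown by the shape of the point; bars give the mean and SD of 3 libraries. The control and I13 points of each gene overlap, and SIRT4 sits between 0.198 and 0.668 FPKM, below the other 6 genes.

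The order of the upper tier and its separation from SIRT3 depended on the length that the fragments were divided by. The deposited values use all exons of a gene, and the principal transcript of SIRT7 is 1743 bases of 6152 exonic bases (28.3%), while that of SIRT1 is 4094 of 4551 bases (90.0%). For a second set of values, the same fragments, counted over all exons, were divided by the length of the principal transcript. The second values are therefore not levels of that transcript alone. Per kilobase of the principal transcript, a choice made after the values were seen, SIRT7 was first at 26.6 FPKM. SIRT2 at 23.4, SIRT6 at 16.05 and SIRT1 at 9.21 FPKM followed. SIRT3 at 7.84, SIRT5 at 3.69 and SIRT4 at 0.510 FPKM came after them. By this length SIRT1, at 8.17 to 10.2 FPKM, overlapped SIRT3, at 7.24 to 8.56 FPKM, so that the gap below the upper tier was seen only with the deposited length. SIRT7 was thus the lowest of the upper tier by one length and the highest by the other.

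**Figure D2:**
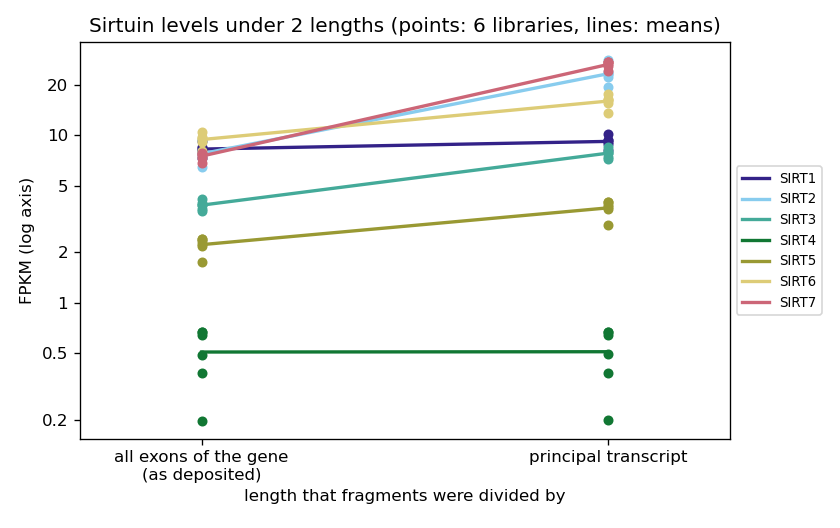
FPKM of each sirtuin gene (log axis) with fragments divided by the length of all exons, as deposited, and by that of the principal transcript. The fragments are those of all exons in both cases. Points are the 6 libraries and lines join the means. SIRT7 and SIRT2 move above SIRT6 and SIRT1, and SIRT4 stays at the bottom.

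The region upstream of the gene is shown for SIRT4, the lowest member, and for 3 higher ones, because their base composition differs. RefSeq gives a window of 250 bases before and 50 after the start (GRCh38.p14) for 6 of the 7 genes. Dinucleotides CG numbered 39 in the window of SIRT1, 37 in SIRT5, 31 in SIRT3, 29 in SIRT6, 23 in SIRT2 and 9 in SIRT4, where the median of 35116 windows was 14. The bases before the start that lie outside every exon of GENCODE release 29 are printed 5′ to 3′ on the strand of the gene. They are chr10:67884406-67884655 (plus strand) for SIRT1, chr12:120302071-120302315 (plus strand) for SIRT4, chr6:13574279-13574528 (plus strand) for SIRT5 and chr19:4182605-4182813 (minus strand) for SIRT6. Capitals mark every match, on either strand, to 6 motifs, which are the GC box GGGCGG, the E-box CACGTG, the cyclic AMP element TGACGTCA, the NRF1 motif (a palindrome), the ETS motif CCGGAAG and the TATA box TATAAA.
SIRT1: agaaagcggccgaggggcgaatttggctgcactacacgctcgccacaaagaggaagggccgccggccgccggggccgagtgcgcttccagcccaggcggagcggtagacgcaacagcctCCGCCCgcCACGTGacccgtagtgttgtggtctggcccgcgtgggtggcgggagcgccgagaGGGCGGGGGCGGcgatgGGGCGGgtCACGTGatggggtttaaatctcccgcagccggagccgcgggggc
SIRT4: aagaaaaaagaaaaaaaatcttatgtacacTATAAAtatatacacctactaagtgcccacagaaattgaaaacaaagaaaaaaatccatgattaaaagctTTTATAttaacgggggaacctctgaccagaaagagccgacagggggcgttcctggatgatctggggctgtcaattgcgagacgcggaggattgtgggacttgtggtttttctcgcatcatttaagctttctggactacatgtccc
SIRT5: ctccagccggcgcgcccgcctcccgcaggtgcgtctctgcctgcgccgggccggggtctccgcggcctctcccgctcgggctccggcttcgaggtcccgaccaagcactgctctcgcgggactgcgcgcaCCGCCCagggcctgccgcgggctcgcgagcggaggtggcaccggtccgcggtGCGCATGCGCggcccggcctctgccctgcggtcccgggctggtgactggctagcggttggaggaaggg
SIRT6: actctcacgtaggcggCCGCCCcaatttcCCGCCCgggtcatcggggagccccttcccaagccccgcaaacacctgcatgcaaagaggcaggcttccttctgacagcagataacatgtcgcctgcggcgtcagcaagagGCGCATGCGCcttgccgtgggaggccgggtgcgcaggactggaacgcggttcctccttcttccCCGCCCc
SIRT1 holds 2 E-boxes and 4 GC boxes in this stretch, SIRT5 and SIRT6 hold 1 NRF1 motif each, and SIRT4 holds 2 matches to the TATA letters and no GC box. The lack of a GC box was not particular to SIRT4. The window of SIRT2, a gene of the upper tier that is not printed, held none of the 6 motifs. That of SIRT3, also not printed, held 1 GC box and 1 ETS motif. The printed stretches have 209 to 250 bases, and the windows, which have 300, are longer. Of all windows, 7.26% hold an E-box, 1.24% the NRF1 motif, 45.0% a GC box and 11.5% the TATA letters. In addition, 10.3% hold the ETS motif and 1.85% the cyclic AMP element. These matches describe letters and are not binding sites.

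The comparison of I13 with control asks whether the inhibitor changed the mRNA of the deacylases that do not use zinc. No sirtuin gene passed a test. All 7 members passed the minimum mean of 0.1 FPKM and entered a limma fit on log2(FPKM + 0.1) of the 18726 genes that did. By limma, 0 of the 7 passed an adjusted p of 0.05 with a log2 fold change of at least 0.58, as did 0% of all genes tested. An unadjusted p under 0.05 was found for 0 of the 7, against 5.14% of all genes, and with the fold threshold for 0 of the 7, against 2.38%. With voom (limma applied to fragment counts recovered from the FPKM), 0 of the 7 had an unadjusted p under 0.05, against 5.36% of 13814 genes, and 0 passed the adjusted p with the fold threshold, against 0.029%. The control and I13 libraries did not overlap for 0 of the 7, against 9.52% of all genes. The log2 fold change was above 0 for 4 members and below 0 for 3, with a median of 0.034 against 0.006 for all genes. The adjusted p-values of the 7 lay between 0.983 and 1.000 by limma. For 6 of the 7, all but SIRT4, the 95% interval of the log2 fold change lay within ±0.58. Exact permutation p-values (two-sided) lay between 0.3 and 0.8, where 3 libraries against 3 cannot give less than 0.1. In bulk libraries, fewer cells with a transcript and less of it per cell cannot be told apart.

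**Figure D3:**
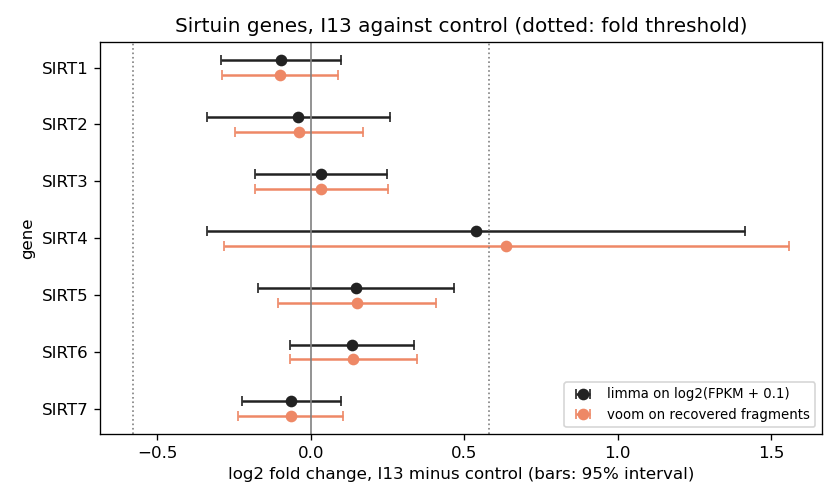
Log2 fold change of I13 minus control for each sirtuin gene, with 95% intervals, from limma on log2(FPKM + 0.1) in black and from voom on recovered fragments in orange; dotted lines mark the threshold of 0.58. Every interval includes 0, and the interval of SIRT4 alone reaches past the threshold, up to 1.42 by limma.

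Among the nuclear members, SIRT1 (ENSG00000096717, chromosome 10 from 67884669 to 67918390) was at 9.21, 8.46 and 8.04 FPKM in control replicates 1, 2 and 3 and at 8.49, 7.35 and 8.18 FPKM in I13 replicates 1, 2 and 3. All 3 I13 libraries were below the control mean of 8.57 FPKM, and I13 replicate 1 was above control replicates 2 and 3. For SIRT1 limma gave a log2 fold change of -0.098 with a 95% interval from -0.29 to 0.098 (standard error 0.083, unadjusted p = 0.277). A fall of more than 18.4% or a rise of more than 7.02% lies outside this interval. The 4 libraries alone gave -0.083 and the pair -0.13.

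SIRT6 (ENSG00000077463, chromosome 19 from 4174109 to 4182604) deacetylates histone H3 and takes part in DNA repair and in the control of glycolytic genes. It was at 8.06, 9.20 and 9.77 FPKM in the control libraries and at 9.58, 10.5 and 9.60 FPKM in the I13 libraries. The I13 libraries were all above the control mean of 9.01 FPKM, and control replicate 3 was above I13 replicates 1 and 3. Its log2 fold change of 0.14 (standard error 0.086, 95% interval -0.067 to 0.34) had the smallest unadjusted p of the 7 genes, 0.158 from limma, and 15.6% of all genes tested had a smaller one. The 4 libraries alone gave 0.15 and the pair 0.0998. ANKRD24, whose start lies 750 bases from that of SIRT6 on the other strand, was at most 0.190 FPKM in any library.

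SIRT7 (ENSG00000187531, chromosome 17 from 81911939 to 81921323), which acts at ribosomal RNA genes in the nucleolus, was at 7.77, 7.56 and 7.73 FPKM in the control libraries. It was at 6.89, 7.38 and 7.81 FPKM in the I13 libraries. I13 replicate 3 was above every control library. For SIRT7 the log2 fold change was -0.064 (standard error 0.068, 95% interval -0.23 to 0.098, unadjusted p = 0.382 from limma), -0.062 within the 4 libraries and -0.067 within the pair. MAFG, which encodes a small MAF transcription factor, overlaps SIRT7 by 3054 bases on the same strand, so that fragments there could have been divided between the genes. MAFG was at 14.2 ± 1.62 FPKM (SD, n = 3) in control and 14.6 ± 0.715 FPKM (SD, n = 3) in I13 libraries.

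SIRT2 (ENSG00000068903, chromosome 19 from 38878555 to 38899862), which deacetylates tubulin, was at 6.47, 7.95 and 9.34 FPKM in control replicates 1, 2 and 3 and at 7.72, 7.70 and 7.43 FPKM in the I13 libraries. The control libraries had both the lowest and the highest value, and the I13 libraries lay between them. The coefficient of variation was 18.1% in control and 2.11% in I13 libraries. With 694 to 963 fragments in the control libraries, the chi-square per degree of freedom was 27.3, where counting noise alone gives about 1. The difference in spread was not tested. For SIRT2 the log2 fold change was -0.040 (standard error 0.13, 95% interval -0.34 to 0.26, unadjusted p = 0.762 from limma). The 4 libraries alone gave 0.077, the pair -0.27, and it was 0.085 without control replicate 3, so its direction turned with that library. NFKBIB, which encodes an inhibitor of NF-kappa B, starts 162 bases from SIRT2 on the other strand, and its log2 fold change was 0.018 (standard error 0.063).

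Among the mitochondrial members, SIRT3 (ENSG00000142082, chromosome 11 from 215458 to 236931), the main mitochondrial deacetylase, was at 4.19, 3.54 and 3.64 FPKM in the control libraries and at 3.83, 3.96 and 3.82 FPKM in the I13 libraries. Control replicate 1 was the highest of the 6 and control replicate 2 the lowest. For SIRT3 the log2 fold change was 0.034 (standard error 0.092, 95% interval -0.18 to 0.25, unadjusted p = 0.724 from limma), and it was -0.0088 within the 4 libraries, 0.12 within the pair and -0.012 without control replicate 2. PSMD13, a proteasome subunit gene, starts 385 bases from the start of SIRT3 on the other strand and overlaps it. It was at 20.4 ± 0.480 FPKM (SD, n = 3) in control and 21.5 ± 0.932 FPKM (SD, n = 3) in I13 libraries, a log2 fold change of 0.069 (standard error 0.053).

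SIRT5 (ENSG00000124523, chromosome 6 from 13574529 to 13615158) removes succinyl, malonyl and glutaryl groups. It was at 2.26, 2.33 and 1.75 FPKM in the control libraries and at 2.19, 2.40 and 2.41 FPKM in the I13 libraries. Control replicate 3 stood lowest, at 189 fragments, where the other 5 libraries had 227 to 261. For SIRT5 the log2 fold change was 0.15 (standard error 0.14, 95% interval -0.17 to 0.47, unadjusted p = 0.311 from limma). The 4 libraries alone gave 0.0042, and 0.43 came from the pair that holds control replicate 3.

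SIRT4 (ENSG00000089163, chromosome 12 from 120302316 to 120313249), a mitochondrial ADP-ribosyltransferase and lipoamidase, rested on few fragments. It had 8, 14 and 4 fragments in the control libraries, or 0.380, 0.668 and 0.198 FPKM, and 13, 10 and 12 fragments in the I13 libraries, or 0.668, 0.491 and 0.643 FPKM. Control replicate 2 was at the level of the highest I13 library. The log2 fold change was the largest of the 7 genes, 0.54 (standard error 0.37, 95% interval -0.34 to 1.42, unadjusted p = 0.189 from limma). With 26 fragments over the control and 35 over the I13 libraries, the ratio at equal depth was 1.43, with an exact binomial 95% interval from 0.838 to 2.48 that covers counting error only. Leaving out control replicate 2 gave a log2 fold change of 0.88 with an unadjusted p of 0.0378 by limma. The 4 libraries alone gave 0.32 and the pair 0.99. A change of SIRT4 was not detected, and the interval leaves room for more than a doubling.

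By the deposited length of all exons, the sum of the 7 genes was nearly the same in every library. It was 38.3, 39.7 and 40.5 FPKM in control replicates 1, 2 and 3 and 39.4, 39.8 and 39.9 FPKM in I13 replicates 1, 2 and 3. The means were 39.5 ± 1.08 FPKM (SD, n = 3) and 39.7 ± 0.283 FPKM (SD, n = 3), a difference of 0.170 FPKM (exact permutation test, two-sided, p = 0.8). By the deposited length, the 3 nuclear members made up between 63.1% and 65.3% of the sum. SIRT2 made up between 16.9% and 23.1%, and the 3 mitochondrial members between 13.8% and 17.8%. Neither these shares nor the comparison with HDAC genes below was computed with the principal transcript, by which the order of the genes changed. The share of SIRT6 was 22.8% ± 1.59 (SD, n = 3) in control and 24.9% ± 1.24 (SD, n = 3) in I13 libraries (exact permutation test, two-sided, p = 0.2). The 11 zinc-dependent HDAC genes, measured on the same scale, summed to 109 ± 2.85 FPKM (SD, n = 3) in control and 112 ± 1.68 FPKM (SD, n = 3) in I13 libraries, so that the sirtuin sum was between 35.1% and 37.1% of it. HDAC1 was the highest of these, at 56.7 ± 2.15 and 60.1 ± 1.75 FPKM (SD, n = 3 each). By limma, 0 of the 11 had an unadjusted p under 0.05, against 5.14% of all genes, and by voom 1 of 10 did, against 5.36%.

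**Figure D4:**
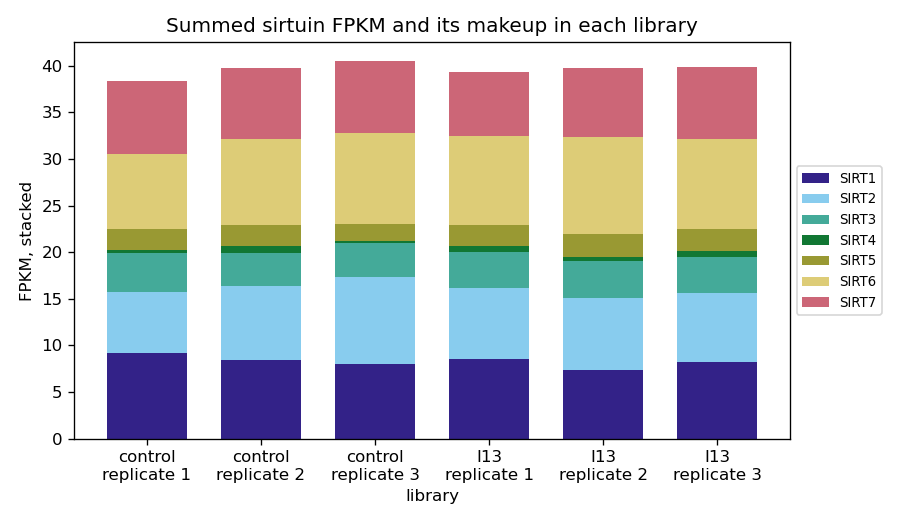
Stacked FPKM, as deposited, of the 7 sirtuin genes in each of the 6 libraries. The stacks end between 38.3 and 40.5 FPKM, and the thickest layers are SIRT1, SIRT2, SIRT6 and SIRT7.

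Genes around the sirtuins were examined with 6 lists of 120 genes written from general knowledge, of which 105 were tested. Their share of low p-values was near that of all genes. An unadjusted p under 0.05 was found by limma for 4 of the 105 (3.81%), against 5.14% of all genes. Of these, 1 was higher and 3 were lower, against 2.55% higher and 2.59% lower over all genes, and 0 passed the adjusted p. The 4 genes were BST1, E2F1, TXNIP and CITED2.

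NAD+ is made from nicotinamide by NAMPT and the NMNAT enzymes. Of 19 genes listed under NAD+ supply, 12 were tested, with a median log2 fold change of 0.0050. By limma or voom 0 had an unadjusted p under 0.05, against 5.14% and 5.36% of all genes. NAMPT, the rate-limiting enzyme of the salvage pathway, was at 6.99, 6.23 and 5.74 FPKM in the control libraries and 6.61, 5.29 and 6.33 FPKM in the I13 libraries, a log2 fold change of -0.057 (95% interval -0.32 to 0.21). NMNAT1, the nuclear enzyme, was at 2.18 ± 0.0320 and 2.12 ± 0.0525 FPKM (SD, n = 3 each), with no overlap of the groups and a log2 fold change of -0.037 (95% interval -0.26 to 0.19). It was the 1 gene of the 12 whose groups did not overlap, against 9.52% of all genes. The highest gene of the list was NADK, at 26.1 and 25.6 FPKM. It is the cytosolic NAD+ kinase, which uses NAD+, so the list is wider than supply alone. NMNAT2, NMRK2 and TDO2 were listed at 0 in every library.

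Other enzymes also consume NAD+. Of 18 genes of such enzymes, 17 were tested, with a median log2 fold change of 0.013. At an unadjusted p under 0.05 by limma, 0 were higher, against 2.55% of all genes, and 1 was lower, against 2.59%. That gene was BST1 (CD157), an ADP-ribosyl cyclase on the surface of myeloid cells. BST1 was at 12.3, 12.7 and 12.9 FPKM in the control libraries and 9.69, 11.2 and 10.5 FPKM in the I13 libraries. The I13 libraries all lay below the controls, for which the two-sided exact permutation test gave 0.1, its lower limit. Groups did not overlap for 2 of the 17 genes, against 9.52% of all genes. For BST1 limma gave a log2 fold change of -0.27 with a 95% interval from -0.43 to -0.11 (standard error 0.069, unadjusted p = 0.00544, adjusted p = 0.787), -0.31 within the 4 libraries and -0.19 within the pair. CD38, the other cyclase of this family, was at 1.06 ± 0.122 and 1.10 ± 0.0556 FPKM (SD, n = 3 each). PARP1, the main poly(ADP-ribose) polymerase and the highest gene of the list, was at 51.3 ± 1.64 and 51.2 ± 1.39 FPKM (SD, n = 3 each), a log2 fold change of -0.0032 (95% interval -0.11 to 0.11).

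Of 19 regulators and partners of sirtuins, 18 were tested, with a median log2 fold change of 0.024. At an unadjusted p under 0.05 by limma, 1 was higher, against 2.55% of all genes, and 0 were lower, against 2.59%. E2F1, a transcription factor known to activate SIRT1, was at 23.0, 25.4 and 26.7 FPKM in the control libraries and 27.7, 29.6 and 27.3 FPKM in the I13 libraries, with no overlap. Groups did not overlap for 2 of the 18 genes, against 9.52% of all genes. Limma gave a log2 fold change of 0.17 for E2F1 (unadjusted p = 0.0390, standard error 0.069, adjusted p = 0.947), and the unadjusted p was 0.115 without I13 replicate 2. CCAR2, an inhibitor of SIRT1, had a log2 fold change of -0.055 (95% interval -0.19 to 0.083). USP22, which deubiquitinates SIRT1, was at 16.8 ± 0.543 and 16.8 ± 0.951 FPKM (SD, n = 3 each). CSNK2A1, a catalytic subunit of casein kinase 2, was the highest of the list at 35.6 and 36.2 FPKM.

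Substrates of the sirtuins were also compared. Of 23 nuclear and cytosolic substrates, 23 were tested, with a median log2 fold change of -0.037. By limma or voom 0 had an unadjusted p under 0.05, against 5.14% and 5.36% of all genes. XRCC6, the Ku70 gene and the highest of the list, was at 156 ± 3.54 and 163 ± 6.03 FPKM (SD, n = 3 each), a log2 fold change of 0.060 (95% interval -0.049 to 0.17). Of 27 mitochondrial substrates, 22 were tested, with log2 fold changes between -0.096 and 0.088. Among these 22, 0 had an unadjusted p under 0.05 by limma or voom, against the same shares of all genes. IDH2, mitochondrial isocitrate dehydrogenase, was at 145 ± 7.91 and 144 ± 6.90 FPKM (SD, n = 3 each). SOD2, mitochondrial superoxide dismutase, had a log2 fold change of 0.088 (95% interval -0.087 to 0.26). ACADL and OTC were listed at 0 in every library, as was TRIM63 among the FOXO targets below.

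Of 15 target genes of FOXO factors, 14 were tested, 0 were higher and 2 were lower at an unadjusted p under 0.05 by limma, against 2.59% lower over all genes, and 3 of the 14 had one by voom, against 5.36%. The median log2 fold change was -0.059, and 11 of the 14 were below 0, as were 48.2% of all genes tested. TXNIP, an inhibitor of thioredoxin, was at 68.7, 71.7 and 65.5 FPKM in the control libraries and 61.4, 64.9 and 55.7 FPKM in the I13 libraries (log2 fold change -0.18, unadjusted p = 0.0321, adjusted p = 0.947 from limma). CITED2, a transcriptional coregulator, was at 115, 113 and 107 FPKM and 102, 105 and 96.7 FPKM (log2 fold change -0.14, unadjusted p = 0.0307, adjusted p = 0.947 from limma). Neither overlapped between the groups, and they were the 2 of the 14 that did not, against 9.52% of all genes. Within the pair the log2 fold changes were -0.012 for TXNIP and -0.020 for CITED2, and within the 4 libraries -0.26 and -0.20. With a library left out, the unadjusted p reached 0.115 for TXNIP, without control replicate 2, and 0.0952 for CITED2, without control replicate 1.

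**Figure D5:**
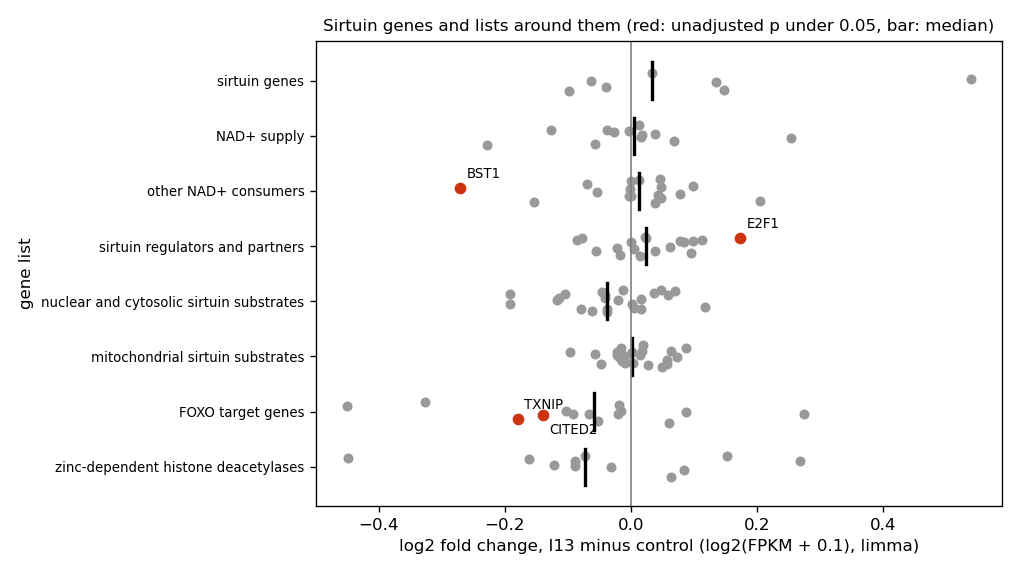
Log2 fold change of I13 minus control (horizontal axis) for the sirtuin genes and each list, 1 point a gene and a bar at the median; red points have an unadjusted p under 0.05 by limma. The 7 sirtuin points are grey, and the 4 red points are BST1, E2F1, TXNIP and CITED2.

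The gene whose level followed each sirtuin most closely over the 6 libraries was sought among 6266 protein-coding genes with a mean of at least 5 FPKM. On log2(FPKM + 0.1), Pearson's r was 0.996 for SIRT6 with KEAP1, 0.994 for SIRT1 with SERINC1, 0.992 for SIRT4 with LRRC8D, 0.985 for SIRT2 with EML3, 0.984 for SIRT5 with YBX3, 0.984 for SIRT3 with DHRS4L2 and 0.980 for SIRT7 with EP300. These are descriptions over 6 libraries, which differ in depth and among which control replicate 3 and I13 replicate 2 stand apart. With so many genes searched, high values are found for any gene. The number of genes with r above 0.95 was 46 for SIRT1, 29 for SIRT6 and 2 for SIRT3. KEAP1, which encodes the adaptor that targets NRF2 for degradation, was lowest in control replicate 1, at 21.6 FPKM, and highest in I13 replicate 2, at 27.2 FPKM. The libraries stood in the same order for KEAP1 as for SIRT6, except that I13 replicates 1 and 3 changed places.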

How the data were processed

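Kasumi-1 cells were sequenced as mRNA in 6 libraries, 3 control and 3 I13, grouped by their sample titles. The authors deposited FPKM values. The libraries were made with a stranded kit per the labels, and the submitters' processing notes name Trimmomatic, HISAT2, Cufflinks and HTSeq and the build hg38. Versions, annotation release and strand setting were not given in the sources used here. With exon lengths of GENCODE release 29, 25773 of 27002 genes above 0 (95.4%) came out as whole fragments in each library (tolerance 0.01), from which depth was taken. For 1154 more genes the step shared by their values was used.

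Differential expression was tested with limma 3.58.1 (R 4.3.3), two-sided, on log2(FPKM + 0.1) of all genes averaging 0.1 FPKM or more, with a variance trend, no block and Benjamini-Hochberg adjustment. The added constant shrinks the fold change of low genes. Limma's voom was run on genes averaging 10 or more fragments. The scripts were tested on simulated data. Averaged over genes with 20 or more fragments in a pair of replicates, the chi-square was 3.07 to 8.26 in the 6 pairs of the same group, where counting noise gives about 1, so no libraries were merged. Single genes lay below and above these averages. Genes other than the sirtuins were named by a rule: 9 fixed genes, 1 of which is not reported here, up to 3 genes per list with the smallest unadjusted p under 0.05, the highest gene of each list, protein-coding neighbors within 1 kb, and the closest gene by correlation. Others given as listed at 0 were chosen after their values were seen. The members and lists were chosen with earlier results of these data known. Genes of the lists with no value given either were not tested, or were tested and entered the counts and medians without being named. Alternatives were other pseudocounts, filters, scalings and variance settings, voom, each library left out, a replicate block and a term for the library pair.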

Additional observations from a re-analysis of the deposited data

How the results depend on the processing

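No sirtuin gene passed the adjusted p and fold threshold under any of 19 alternatives by limma or voom. At an unadjusted p under 0.05, 1 gene passed (SIRT4) without control replicate 2, and 0 passed under the other 18, the range over left-out libraries being 0 to 1. The direction was kept for SIRT1, SIRT4, SIRT5, SIRT6 and SIRT7 under all alternatives run. The log2 fold change of SIRT2 was between -0.18 and 0.085 with a library left out and 0.077 within the 4 libraries, and that of SIRT3 between -0.012 and 0.11 and -0.0088. The difference in summed sirtuin FPKM was between -0.412 (without control replicate 1) and 0.652 with a library left out and -0.0059 under median scaling. The 4 list genes with an unadjusted p under 0.05 became 1 under median scaling, 1 with no trend, 9 with a term for the library pair, 10 within the 4 libraries, 13 by voom with that term, and between 1 and 8 with a library left out, fewest without control replicate 2 or I13 replicate 1 and most without control replicate 3. Over all genes the share with such a p also moved, from 5.14% to 7.62% with the pair term, 8.58% within the 4 libraries, 10.3% by voom with the term and 6.42% without control replicate 3. BST1 kept an unadjusted p under 0.05 in 19 of 19 alternatives (0.000779 to 0.0213), TXNIP and CITED2 in 13 each and E2F1 in 11. The cause of these shifts was not tested.

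Values close to 0 turned sign. With a library left out, the log2 fold change was between -0.12 and 0.038 for NAMPT, -0.0036 and 0.13 for CD38, -0.027 and 0.020 for PARP1, -0.043 and 0.037 for USP22 and -0.046 and 0.032 for IDH2. Within the 4 libraries it was 0.0076 for PARP1. The 2 libraries that stood apart, taken alone, gave 0.011 for CCAR2 and 0.10 for USP22. For USP22 it was 0.0012 under quantile normalization and 0.00026 by voom with the pair term.

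Of all genes, 0 passed the adjusted p and fold threshold by limma, 9 with no trend, 4 by voom and 15 by voom with the pair term, which was chosen after seeing the data. The labels do not say whether same-numbered libraries were paired. Deviations of same-numbered libraries correlated at 0.32 for number 1, -0.38 for number 2 and -0.30 for number 3. Those of control replicate 3 with I13 replicate 2 correlated at 0.51. With 3 libraries a group, these values do not settle whether the numbers mark pairs. With the replicate number as a block, 0 sirtuin genes and 4 list genes had an unadjusted p under 0.05, E2F1 not among them (p = 0.0572), and the summed difference was 0.170 FPKM (exact permutation of signs, p = 0.75). A minimum mean of 1 FPKM left SIRT4 untested. It had 4 to 14 fragments per library.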
